A study of Mus musculus with 48 samples.

Results

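The biliary and epithelial keratin genes described here are 8 genes of mouse liver, *Epcam*, *Krt7*, *Krt19*, *Krt8*, *Krt18*, *Krt23*, *Sox9* and *Cdh1*. They were chosen by name as genes of bile duct cells and of epithelial cells in general. Each of the 8 matched 1 of the 55414 genes in the count table. Livers came from 48 mice of the FCG model, which separates the sex chromosomes from the type of gonad. The mice formed 8 groups of 6, and each gave 1 library. All mice carried a C57BL/6 background and received a high-fat diet (HFD) with 60% fat (Bioserv F3282), so no group on another diet can be set beside them. In this model the testis-determining gene *Sry* is missing from the Y chromosome, written XY-, and an *Sry* transgene sits on an autosome. Mice with ovaries (Ov) were therefore XX or XY-, and mice with testes (Te) were XX;SryTg or XY-;SryTg. In each of these 4 genotypes, 6 mice kept their gonads (Intact) and 6 were gonadectomized (GDX) at 75 days of age. The sample descriptions put the start of the diet at 15 to 17 weeks of age and its length at 11 weeks in intact mice and 15 weeks in GDX mice, whereas the methods of the study state other lengths. Gonadal status, weeks of diet and cohort therefore cannot be told apart.

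Simple epithelia build their intermediate filaments from pairs of a type II and a type I keratin. In the liver, hepatocytes hold the pair of keratin 8 and keratin 18 alone, whereas the cells that line bile ducts, the cholangiocytes, add keratin 7 and keratin 19. Cholangiocytes also carry the surface protein EpCAM and the transcription factor SOX9, which takes part in the formation of bile ducts and is found in hepatocytes next to them. E-cadherin, the product of *Cdh1*, joins epithelial cells at adherens junctions. Keratin 23 is a type I keratin whose role is less well described. In whole liver, fewer cells of a type and less RNA per cell cannot be told apart.

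On the NCBIM37 build, an earlier build than the GRCm39 used by the authors, *Krt8* (ENSMUSG00000049382) spanned chr15:101827142-101834773 on the minus strand and *Krt18* (ENSMUSG00000023043) spanned chr15:101858647-101862457 on the plus strand. A gap of 23873 bases separated this pair. *Krt7* (ENSMUSG00000023039) lay on the same chromosome at chr15:101241474-101260744. *Krt19* (ENSMUSG00000020911, chr11:100002124-100009979), *Krt23* (ENSMUSG00000006777, chr11:99339288-99354451) and *Sox9* (ENSMUSG00000000567, chr11:112643538-112649074) shared chromosome 11. *Epcam* (ENSMUSG00000045394) lay at chr17:88035319-88050446 and *Cdh1* (ENSMUSG00000000303) at chr8:109127251-109194146. None of the 8 overlapped another annotated gene.

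RefSeq promoter windows of the GRCm38.p6 build, with 250 bases before the annotated start and 50 from it on, matched 5 of the 8 genes. The windows of *Krt8*, *Krt18*, *Krt23* and *Krt7* are shown because these keratins moved apart in the comparisons that follow. Capitals mark matches, on either strand, to the GC box GGGCGG or the TATA box TATAAA. The windows are chr15:102004293-102004592 on the minus strand for *Krt8*, chr15:102027966-102028265 on the plus strand for *Krt18*, chr11:99493071-99493370 on the minus strand for *Krt23* and chr15:101412153-101412452 on the plus strand for *Krt7*.
Krt8: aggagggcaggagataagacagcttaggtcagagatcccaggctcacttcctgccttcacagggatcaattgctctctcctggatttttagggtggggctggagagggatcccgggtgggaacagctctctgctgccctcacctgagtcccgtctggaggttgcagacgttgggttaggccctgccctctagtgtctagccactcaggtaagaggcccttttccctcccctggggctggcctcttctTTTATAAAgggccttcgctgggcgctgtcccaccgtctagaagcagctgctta
Krt18: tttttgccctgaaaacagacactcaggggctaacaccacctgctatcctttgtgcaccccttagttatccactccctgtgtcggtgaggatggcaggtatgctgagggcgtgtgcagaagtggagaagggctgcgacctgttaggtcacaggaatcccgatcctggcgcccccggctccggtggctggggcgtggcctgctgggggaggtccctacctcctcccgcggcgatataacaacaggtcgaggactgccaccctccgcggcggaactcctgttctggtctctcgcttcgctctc
Krt23: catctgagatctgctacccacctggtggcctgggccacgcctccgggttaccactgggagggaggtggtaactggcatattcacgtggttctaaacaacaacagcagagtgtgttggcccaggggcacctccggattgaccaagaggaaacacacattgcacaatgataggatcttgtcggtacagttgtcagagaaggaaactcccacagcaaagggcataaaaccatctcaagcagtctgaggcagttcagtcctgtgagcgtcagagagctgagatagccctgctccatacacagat
Krt7: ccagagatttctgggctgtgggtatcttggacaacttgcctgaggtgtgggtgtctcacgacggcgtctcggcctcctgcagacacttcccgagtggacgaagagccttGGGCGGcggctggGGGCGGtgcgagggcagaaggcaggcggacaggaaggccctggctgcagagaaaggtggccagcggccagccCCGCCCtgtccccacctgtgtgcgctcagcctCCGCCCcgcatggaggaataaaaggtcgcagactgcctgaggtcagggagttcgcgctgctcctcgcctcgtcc

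The *Krt7* window held 4 GC boxes, whose first bases lay 141, 128, 56 and 24 bases before the start, on both strands. The *Epcam* window, not shown, held 1 GC box, 58 bases before the start. The *Krt8* window held a TATA box on each strand, and the 2 matches overlapped at the annotated start. The windows of *Krt18* and *Krt23* held neither motif, and no window of the 5 held a CCAAT box (CCAAT) or an AP-1 motif (TGANTCA). Among 32851 mouse promoter windows of this length, 35.7% held a GC box, 13.6% a TATA box, 37.4% a CCAAT box and 7.81% an AP-1 motif. A match is a description of letters and not of binding.

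Library totals on genes lay between 13071874 and 20045141 reads, and levels are given as CPM, the reads of a gene scaled to a common total on genes. A floor of 3 reads was set for expression, which at these totals was 0.150 to 0.230 CPM and allows for counting error alone. Hepatocyte markers were abundant in every mouse, with 10 genes summing to between 71460 and 134576 CPM. Intact and GDX libraries differed in make-up. Reads outside genes made up 3.47% to 6.20% of an intact library and 8.52% to 11.3% of a GDX library. The factor by which edgeR's TMM method corrects a library's size ran from 0.742 to 1.08 in intact mice and from 0.946 to 1.24 in GDX mice, and 5 intact libraries stood below 0.85 (3 XX Ov, 1 XY Ov and 1 XY Te). Results that rest on these 5 libraries are given with and without them.

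A comparison of levels between genes requires a correction for length. Per kilobase of the longest coding transcript, the median over 48 mice was 71.8 CPM for *Krt18* and 51.3 CPM for *Krt8*. *Krt23* followed with 6.36 CPM and *Cdh1* with 2.23 CPM per kilobase. The lowest were the genes named above for cholangiocytes, at 0.693 CPM per kilobase for *Sox9*, 0.532 for *Epcam*, 0.260 for *Krt19* and 0.129 for *Krt7*. The keratin pair that hepatocytes share thus stood far above the keratins that mark ducts. *Krt7* had 0 to 24 reads per mouse and *Krt19* 0 to 19 reads, so both lay close to the floor in many intact mice, and 2 mice had no read of *Krt7* and 1 none of *Krt19*.

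**Figure D1:**
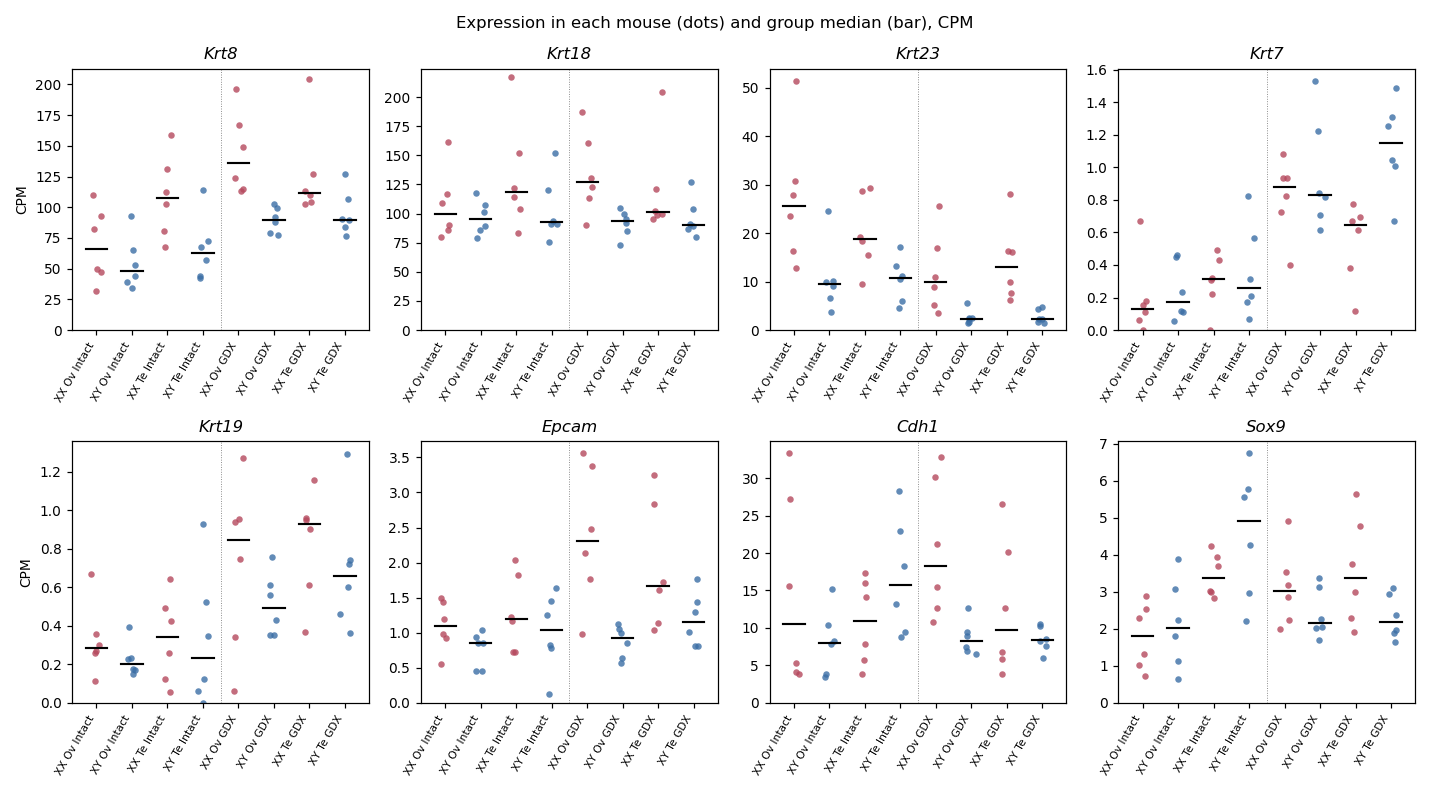
CPM of the 8 genes (1 panel each, linear axis from 0) in every mouse of the 8 groups, XX in red and XY in blue, with the group median as a bar and a dotted line between intact and GDX groups. *Krt23* was lowest in XY GDX mice (1.42 to 5.54 CPM). Against intact mice of the same genotype, *Krt23* was lower and *Krt7* higher in 3 of the 4 GDX groups, and neither passed the test in XX mice with testes.

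The chromosomal effect compared 24 XX with 24 XY mice, averaged over gonads and gonadal states. *Krt23*, *Epcam*, *Krt8*, *Cdh1* and *Krt18* were higher in XX mice, and none was lower. With edgeR's quasi-likelihood test, adjusted by Benjamini and Hochberg's method over 15414 genes, 5 of 8 members passed an adjusted p of 0.05, all higher in XX. Among all genes tested, 36.7% passed, 21.9% higher and 14.8% lower, and the median log2 fold change was 0.05 against 0.50 for the 8 members. With library totals in place of TMM, the split of all genes turned from 3382 higher and 2275 lower to 1207 higher and 3083 lower, whereas 4 members (*Krt23*, *Epcam*, *Krt8* and *Krt18*) again passed as higher and none as lower. Macrophage markers went the other way, with 8 of 10 lower in XX mice, and the cholangiocyte markers *Spp1* and *Pkhd1*, which are not members, were higher. Their part in the members' values was not tested.

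*Krt23* differed most. Its level was 3.62, 16.3 and 51.4 CPM (lowest, median and highest) in 24 XX mice and 1.42, 4.58 and 24.6 CPM in 24 XY mice. The groups overlapped, but 7 XX mice lay above every XY mouse and 9 XY mice lay below every XX mouse. *Krt23* was 3.48-fold higher in XX mice, a log2 fold change of 1.80 ± 0.23 (SE, edgeR adjusted p = 1.2e-08).

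*Epcam*, the adhesion protein of bile duct cells, measured 0.557, 1.47 and 3.56 CPM in XX mice and 0.126, 0.899 and 1.76 CPM in XY mice. The upper end was XX alone, with 8 XX mice above every XY mouse. *Epcam* had a log2 fold change of 0.84 ± 0.17 (edgeR adjusted p = 0.00012).

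*Krt8*, the type II partner of the hepatocyte pair, measured 31.5, 111 and 204 CPM in XX mice and 33.99, 78.3 and 127 CPM in XY mice. Of the XX mice, 7 lay above every XY mouse and 1 below every XY mouse. The log2 fold change was 0.63 ± 0.11 (edgeR adjusted p = 6.1e-06). *Krt18*, its type I partner, measured 80.1, 114 and 217 CPM in XX and 72.9, 91.7 and 152 CPM in XY mice. The ranges overlapped over most of their length, and the log2 fold change was 0.42 ± 0.09 (edgeR adjusted p = 0.0003).

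*Cdh1* measured 3.83, 13.4 and 33.4 CPM in XX mice and 3.47, 8.87 and 28.3 CPM in XY mice, ranges that overlapped almost fully. Its log2 fold change was 0.59 ± 0.21 (edgeR adjusted p = 0.028). The call on *Cdh1* was lost with library totals in place of TMM (adjusted p = 0.091), with no filter beyond 1 count (0.12) and with 1 surrogate variable (0.052), and without any 1 of 4 mice, XX Ov Intact mice 69572 and 81790, XY Ov Intact mouse 89895 and XX Te GDX mouse 93559. The remaining members did not pass, with log2 fold changes of 0.41 ± 0.25 for *Krt19*, 0.18 ± 0.14 for *Sox9* and -0.35 ± 0.24 for *Krt7*. *Krt7* passed without XX Ov Intact mouse 69572 (log2 fold change -0.58, edgeR adjusted p = 0.044).

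**Figure D2:**
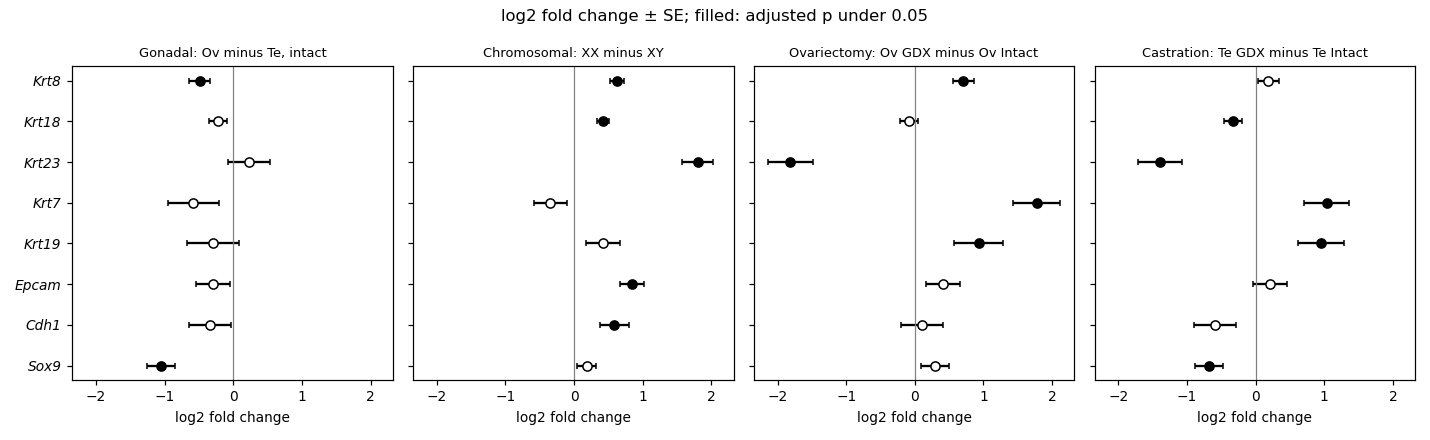
log2 fold change ± SE of the 8 genes, with 1 panel for each of the gonadal, chromosomal, ovariectomy and castration contrasts and with filled points for an adjusted p under 0.05. In the chromosomal panel 5 points are filled and lie above 0, whereas *Krt23* lies below 0 and *Krt7* above 0 in both gonadectomy panels.

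Within cohorts, XX minus XY in 24 intact mice was called for *Krt8* (log2 fold change 0.54 ± 0.15, edgeR adjusted p = 0.013) and *Krt23* (1.16 ± 0.31, adjusted p = 0.0077). These are 2 of 8 members, against 10.7% of all genes, 4.27% higher and 6.42% lower (658 and 990 genes, and 281 and 864 with library totals). Without the 5 libraries with a TMM factor under 0.85, *Krt23* gave 1.003 (adjusted p = 0.053) and *Krt18* passed (0.41, adjusted p = 0.04), so the count was again 2. *Krt8* was not called with library totals (0.52, adjusted p = 0.06) or in a fit of the intact groups alone (0.52, adjusted p = 0.12).

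In 24 GDX mice, 6 of 8 members were higher in XX, against 34.3% of all genes called, 19.5% higher and 14.8% lower. The split of all genes, 3001 higher and 2287 lower, moved to 2347 and 2464 with DESeq2's size factors and to 787 and 3411 with library totals, and the members called were higher in each. *Krt23* measured 3.62, 10.5 and 28.1 CPM in XX GDX mice and 1.42, 2.32 and 5.54 CPM in XY GDX mice. The overlap was small, since 10 of 12 XX GDX mice lay above every XY GDX mouse. Its log2 fold change was 2.43 ± 0.34 (5.41-fold, edgeR adjusted p = 1.1e-07).

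*Epcam* measured 0.976, 1.95 and 3.56 CPM in XX GDX and 0.568, 1.0 and 1.76 CPM in XY GDX mice, with 6 of 12 XX GDX mice above every XY GDX mouse. Its log2 fold change was 1.24 ± 0.24 (edgeR adjusted p = 6.1e-05). *Cdh1* gave 1.07 ± 0.31 (edgeR adjusted p = 0.0052) and *Krt8* 0.71 ± 0.15 (adjusted p = 0.00021). *Sox9* gave 0.67 ± 0.20 (edgeR adjusted p = 0.008) and *Krt18* 0.60 ± 0.13 (adjusted p = 0.0003). With library totals *Sox9* gave 0.50 (adjusted p = 0.098). *Krt7* gave -0.46 ± 0.29 (adjusted p = 0.23) and passed as lower in XX in a fit of the GDX groups alone (-0.51, adjusted p = 0.041).

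A test of the difference between the cohorts, the chromosomal effect in GDX minus that in intact mice, called none of the 8 members by edgeR, against 2.12% of all genes. At an unadjusted p under 0.05 there were 4 members, and DESeq2's Wald test called 1. That gene was *Sox9*, for which edgeR gave 0.98 ± 0.29 (adjusted p = 0.054, from 0.011 to 0.14 over 8 alternatives) and DESeq2 0.96 (adjusted p = 0.025). By edgeR it passed without any 1 of 8 mice, XY Ov Intact mice 799 and 89895, XX Ov Intact mouse 69572, XY Te Intact mouse 10606, XX Te Intact mouse 98893, XX Te GDX mouse 16037, XY Te GDX mouse 69848 and XY Ov GDX mouse 72268 (adjusted p from 0.031 to 0.0495). The larger counts in GDX mice are therefore not shown to differ from those in intact mice, except for *Sox9* under these settings.

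**Figure D3:**
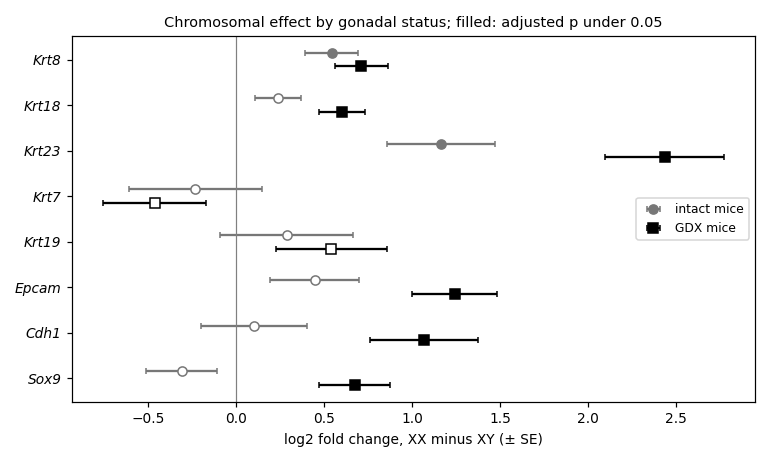
log2 fold change ± SE of XX minus XY for the 8 genes in intact mice (grey circles) and GDX mice (black squares), with filled marks for an adjusted p under 0.05. In intact mice *Krt8* and *Krt23* are filled, in GDX mice 6 genes are, and *Sox9* lies at -0.31 in intact mice and 0.67 in GDX mice.

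For the gonadal effect, 12 Ov Intact mice were set against 12 Te Intact mice. *Sox9* and *Krt8* were lower in mice with ovaries, and no member was higher. These are 2 of 8 members, against 25.3% of all genes called, 14.1% higher and 11.3% lower. The median log2 fold change was -0.32 for the members and 0.04 for all genes tested. Of all genes 2171 were higher and 1736 lower, against 2146 and 1007 with library totals and 1019 and 1254 without the 5 libraries of low TMM factor. Macrophage markers were higher in mice with ovaries in 6 of 10 cases and lower in none, and their part was not tested.

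*Sox9* measured 0.645, 2.03 and 3.90 CPM in Ov Intact mice and 2.20, 3.81 and 6.75 CPM in Te Intact mice. The ranges overlapped, with 6 Ov mice below every Te mouse and 6 Te mice above every Ov mouse. *Sox9* fell by 1.05 on the log2 scale (SE 0.20) in mice with ovaries (edgeR adjusted p = 0.00015). Without the 5 libraries of low TMM factor, the difference was -0.74 (edgeR adjusted p = 0.011).

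By chromosomes, *Sox9* differed by -1.22 ± 0.28 in XY Intact mice (edgeR adjusted p = 0.0025) and by -0.88 ± 0.29 in XX Intact mice (adjusted p = 0.06). A fit of the intact groups alone gave -1.20 in XY mice (adjusted p = 0.064), and DESeq2 gave -0.89 in XX mice (adjusted p = 0.033). In XX mice the edgeR call was also reached without any 1 of 5 mice, XY Ov Intact mice 69065 and 89895, XX Ov Intact mice 69572 and 81790 and XY Te Intact mouse 70314 (adjusted p from 0.022 to 0.047). Between these, the test of the difference gave 0.34 ± 0.41 (edgeR adjusted p = 0.88). *Krt8* measured 31.5, 51.2 and 110 CPM in Ov Intact and 42.1, 76.7 and 159 CPM in Te Intact mice, with 4 Te mice above every Ov mouse. Its log2 fold change of -0.49 ± 0.15 passed in the fit of 48 mice (edgeR adjusted p = 0.016) but not without the 5 libraries (-0.30, adjusted p = 0.24), with library totals (-0.47, adjusted p = 0.054) or in a fit of the intact groups alone (-0.49, adjusted p = 0.082).

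The remaining 6 members gave log2 fold changes from -0.58 ± 0.38 for *Krt7* to 0.23 ± 0.30 for *Krt23*. The *Krt7* value (edgeR adjusted p = 0.25) was sensitive to 1 library. Without XX Ov Intact mouse 69572, which had 0.670 CPM, *Krt7* gave -1.06 (edgeR adjusted p = 0.027). Its median was 2.5 reads in Ov Intact and 5.5 reads in Te Intact mice, so neither fit settles the difference. *Cdh1* differed by 0.48 ± 0.43 in XX and -1.16 ± 0.43 in XY Intact mice (edgeR adjusted p = 0.5 and 0.06). In XY Intact mice *Cdh1* passed with DESeq2 (-1.17, adjusted p = 0.036), with 1 surrogate variable (-1.07, adjusted p = 0.042) and without XY Te Intact mice 10606 or 99557, XY Ov Intact mouse 69065 or XX Ov Intact mouse 97856 (adjusted p from 0.033 to 0.046).

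Between gonads, 5.82% of all genes were called in XX Intact and 15.5% in XY Intact mice, among them no member in XX and *Sox9* in XY mice. The test of the difference between these, gonad by chromosomes in intact mice, called no member by edgeR (0% of all genes) and none by DESeq2, with 1 member, *Cdh1*, at an unadjusted p under 0.05 (log2 difference 1.64 ± 0.61, edgeR adjusted p = 0.66).

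After gonadectomy the comparison of former ovaries with former testes, 12 Ov GDX against 12 Te GDX mice, called none of the 8 members by edgeR or DESeq2, and none had an unadjusted p under 0.05. The share of all genes called was 0.0908%, or 14 genes. Log2 fold changes ran from -0.33 ± 0.32 for *Krt19* to 0.35 ± 0.30 for *Cdh1*. *Sox9* gave -0.08 ± 0.20 and *Krt8* 0.03 ± 0.15.

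The ovariectomy effect, Ov GDX minus Ov Intact mice, split the keratins. *Krt7*, *Krt19* and *Krt8* were higher after ovariectomy and *Krt23* was lower, so 4 of 8 members were called. Of all genes 69.4% were called, 36% higher and 33.4% lower, and 5 of 8 members were called with library totals. The median log2 fold change was 0.35 for the members and 0.06 for all genes tested. With library totals the median of all genes was 0.27, and the split of calls moved from 5554 higher and 5141 lower to 7362 and 3768. The cholangiocyte markers *Spp1* and *Pkhd1*, which are not members, were higher, and their part was not tested.

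*Krt7* measured 0, 0.136 and 0.670 CPM in Ov Intact mice and 0.402, 0.832 and 1.53 CPM in Ov GDX mice. Of the 12 intact mice, 6 had fewer than 3 reads, and 10 of 12 GDX mice lay above every intact mouse. The log2 fold change was 1.77 ± 0.34 (edgeR adjusted p = 1.4e-05). It was 1.81 ± 0.49 in XX mice and 1.74 ± 0.47 in XY mice, and without the 5 libraries it was 1.5 over both and 1.31 in XX mice (edgeR adjusted p = 0.00047 and 0.078).

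*Krt19* measured 0.111, 0.246 and 0.670 CPM in Ov Intact and 0.0606, 0.586 and 1.27 CPM in Ov GDX mice. The groups overlapped in 6 GDX mice and in every intact mouse, and the log2 fold change was 0.93 ± 0.36 (edgeR adjusted p = 0.02). With 1 surrogate variable it was 0.59 (adjusted p = 0.17).

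*Krt8* measured 77.3, 108 and 196 CPM in Ov GDX mice against 31.5, 51.2 and 110 CPM in Ov Intact mice, and 8 intact mice lay below every GDX mouse. *Krt8* gave a log2 fold change of 0.70 ± 0.15 (edgeR adjusted p = 8.4e-05). *Krt18* was not called. It measured 72.9, 102 and 187 CPM in Ov GDX and 78.9, 95.4 and 161 CPM in Ov Intact mice, a log2 fold change of -0.09 ± 0.13 (edgeR adjusted p = 0.56).

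*Krt23* measured 1.42, 4.36 and 25.6 CPM in Ov GDX and 3.81, 14.5 and 51.4 CPM in Ov Intact mice, with 6 GDX mice below every intact mouse. It fell by 1.81 on the log2 scale (SE 0.32, edgeR adjusted p = 4.5e-06). The log2 fold change was -2.27 ± 0.48 in XY mice and -1.35 ± 0.43 in XX mice, and -1.13 in XX mice without the 5 libraries (edgeR adjusted p = 0.12). The difference between XX and XY mice was tested over both gonads together.

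The ovariectomy effect called 4 of 8 members in XX mice, *Krt7*, *Krt8*, *Epcam* and *Krt23*, against 55.1% of all genes. Without the 5 libraries none of these 4 passed, and *Krt8* went from 0.91 ± 0.21 to 0.57 (adjusted p = 0.099). In XY mice the effect called 3 members, *Krt7*, *Krt23* and *Krt8*, against 59.4% of all genes. There *Krt8* (0.49 ± 0.21, edgeR adjusted p = 0.044) lost its call with 1 surrogate variable (0.18) and with no filter beyond 1 count (0.51). It also lost it without any 1 of 9 mice (0.42 to 0.50). These were XY Ov Intact mice 36870, 69065, 799 and 89895, XY Ov GDX mice 19562, 72268, 76112 and 88616 and XY Te Intact mouse 99557.

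*Epcam* gave 0.41 ± 0.25 over both genotypes (edgeR adjusted p = 0.14, and 0.65 with an adjusted p of 0.02 with library totals). It gave 0.90 ± 0.33 in XX mice (adjusted p = 0.021, 0.078 without the 5 libraries, and lost without XX Ov GDX mice 24126 or 29264 or XX Ov Intact mouse 49580) and -0.07 ± 0.37 in XY mice (adjusted p = 0.87). *Sox9* and *Cdh1* gave 0.29 ± 0.21 and 0.10 ± 0.30 over both genotypes. For *Epcam* the interaction of chromosomes with GDX, tested over both gonads together, gave 0.79 ± 0.35 (edgeR adjusted p = 0.27).

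The castration effect, Te GDX minus Te Intact mice, called 5 of 8 members. *Krt7* and *Krt19* were higher, and *Krt23*, *Sox9* and *Krt18* were lower. The background was 63.3% of all genes, 33.4% higher and 29.9% lower. The members' median log2 fold change was -0.07, against 0.07 for all genes tested. With library totals the median of all genes was 0.27, and the split of calls moved from 5147 higher and 4611 lower to 7306 and 3208. Of the cholangiocyte markers that are not members, *Pkhd1* was higher and *Spp1* did not pass, and their part was not tested.

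*Krt23* measured 1.55, 5.49 and 28.1 CPM in Te GDX and 4.45, 14.3 and 29.2 CPM in Te Intact mice, with 5 GDX mice below every intact mouse. It fell by 1.39 on the log2 scale (SE 0.32, edgeR adjusted p = 0.00025). In XY mice the log2 fold change was -2.20 ± 0.47 (edgeR adjusted p = 0.00015) and in XX mice -0.57 ± 0.43 (adjusted p = 0.29). The interaction of chromosomes with GDX, tested over both gonads together and not for castration alone, gave 1.27 ± 0.45 for *Krt23* (edgeR adjusted p = 0.12).

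*Sox9* measured 1.64, 2.66 and 5.65 CPM in Te GDX and 2.20, 3.81 and 6.75 CPM in Te Intact mice, and 4 GDX mice lay below every intact mouse. Its log2 fold change was -0.68 ± 0.20 (edgeR adjusted p = 0.0031), and -0.47 with library totals (adjusted p = 0.057). By chromosomes, the value was -1.32 ± 0.28 in XY mice (edgeR adjusted p = 0.00015) and -0.04 ± 0.28 in XX mice (adjusted p = 0.93). The difference between these 2 values was not tested for castration alone. The interaction of chromosomes with GDX, tested over both gonads together, gave 0.98 ± 0.29 for *Sox9* (edgeR adjusted p = 0.054, DESeq2 Wald test adjusted p = 0.025). In the 6 XY Te Intact mice *Sox9* had a median of 4.91 CPM, the highest of the 8 groups, and in the 6 XY Te GDX mice a median of 2.17 CPM.

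*Cdh1* was also called in XY mice. Its median was 15.7 CPM in XY Te Intact mice (8.76 to 28.3) and 8.42 CPM in XY Te GDX mice (5.997 to 10.5). The log2 fold change of castration was -1.31 ± 0.43 in XY mice (edgeR adjusted p = 0.0094, and 0.058 with library totals) and 0.13 ± 0.43 in XX mice (adjusted p = 0.83). Over both genotypes it was -0.59 ± 0.30 (adjusted p = 0.086), and it passed with 1 surrogate variable (-0.92, adjusted p = 0.0064) and without XX Te GDX mouse 93559 (-0.77, adjusted p = 0.027) or XX Te Intact mouse 11587 (-0.68, adjusted p = 0.046). The interaction of chromosomes with GDX, tested over both gonads together, gave 0.96 ± 0.43 for *Cdh1* (edgeR adjusted p = 0.28). A difference between XX and XY mice is therefore not shown.

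*Krt7* measured 0.120, 0.734 and 1.49 CPM in Te GDX and 0, 0.312 and 0.825 CPM in Te Intact mice, a log2 fold change of 1.04 ± 0.33 (edgeR adjusted p = 0.0057). *Krt19* measured 0.365, 0.732 and 1.29 CPM in Te GDX and 0, 0.302 and 0.928 CPM in Te Intact mice, a log2 fold change of 0.95 ± 0.34 (adjusted p = 0.013). For *Krt7* 5 GDX mice and for *Krt19* 4 GDX mice lay above every intact mouse.

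*Krt18* measured 80.0, 99.4 and 205 CPM in Te GDX and 75.5, 109 and 217 CPM in Te Intact mice, ranges that overlapped almost fully. Its log2 fold change was -0.33 ± 0.13 (edgeR adjusted p = 0.025). This call was lost without the 5 libraries (-0.22, adjusted p = 0.11), with library totals (-0.12, adjusted p = 0.44) and in a fit of the groups with testes alone (-0.33, adjusted p = 0.063). It was also lost without XX Te Intact mouse 14614 (-0.26) or XY Te Intact mouse 70314 (-0.23). *Krt8* gave 0.19 ± 0.15 and *Epcam* 0.21 ± 0.24. The castration effect called 1 of 8 members in XX mice, *Krt19* (1.23 ± 0.47, edgeR adjusted p = 0.037), against 37.1% of all genes. In XY mice the effect called 5, *Krt7*, *Krt23*, *Sox9*, *Cdh1* and *Krt18*, against 56.7% of all genes. The difference between these counts was not tested. In XY mice *Krt18* (-0.46 ± 0.19, edgeR adjusted p = 0.033) lost its call in 5 alternatives, among them without the 5 libraries (-0.23, adjusted p = 0.28). It also lost it without XY Te GDX mice 13306, 21022, 28605 or 30544 or XY Te Intact mouse 70314 (-0.45 to -0.22).

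The test of castration minus ovariectomy, in which a shift shared by both GDX cohorts cancels, called 1 of 8 members, *Sox9* (-0.97 ± 0.29, edgeR adjusted p = 0.035), against 5.6% of all genes. The ovariectomy effect on *Sox9* was 0.29 ± 0.21 and the castration effect -0.68 ± 0.20. Without the 5 libraries the difference was -0.66 (adjusted p = 0.19), with library totals -0.95 (adjusted p = 0.08) and with no filter beyond 1 count -0.98 (adjusted p = 0.051). Leaving out any 1 of 9 mice also lifted the adjusted p above 0.05, up to 0.06. These were XX Ov Intact mice 49580 and 66804, XY Ov Intact mouse 799, XX Ov GDX mouse 29264, XY Ov GDX mice 63079 and 72268, XY Te GDX mouse 21022, XY Te Intact mouse 89033 and XX Te Intact mouse 98893. *Krt8* gave -0.52 ± 0.21 (adjusted p = 0.14, and 0.042 without XX Ov Intact mouse 69572).

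The ratio of *Krt8* to *Krt18* CPM within a mouse does not depend on library size. It was 0.366, 0.700 and 0.983 in 24 intact mice and 0.884, 1.03 and 1.25 in 24 GDX mice. The ranges overlapped between 0.884 and 0.983. By group, the median was lowest in XY Ov Intact mice (0.570) and XX Ov Intact mice (0.599), followed by XY Te Intact (0.662) and XX Te Intact mice (0.826), and lay between 0.956 and 1.07 in the 4 GDX groups. The 5 intact libraries with a TMM factor under 0.85 had a median ratio of 0.396, the other 19 intact libraries 0.752. The part of library make-up in this ratio was not tested.

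**Figure D4:**
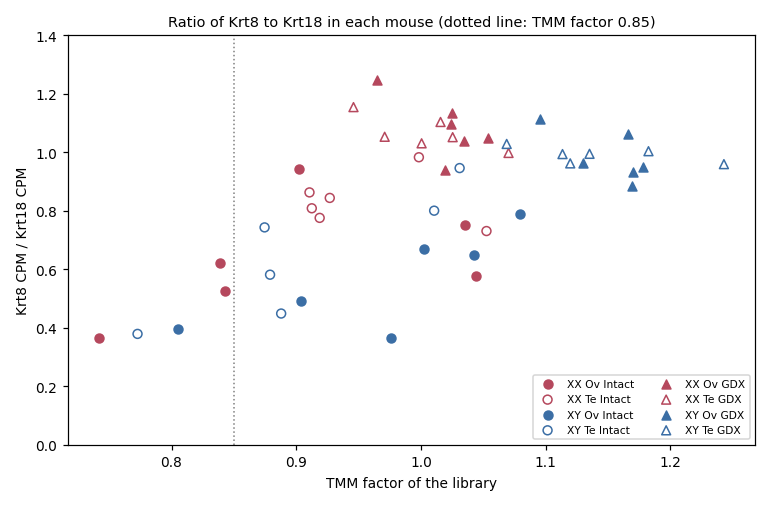
Ratio of *Krt8* to *Krt18* CPM in each of the 48 mice against the TMM factor of its library, XX in red and XY in blue, filled for Ov and open for Te, circles for intact and triangles for GDX mice, with a dotted line at 0.85. GDX mice lie between 0.884 and 1.25, and the 5 intact libraries left of the line lie between 0.366 and 0.620.

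The members did not vary as 1 block. As a description over 48 mice, Pearson's r of log2 CPM after subtracting the group means was highest for *Sox9* and *Cdh1* (0.71), *Krt8* and *Krt18* (0.63), *Krt18* and *Cdh1* (0.58) and *Krt7* and *Cdh1* (0.55). *Epcam* reached 0.45 with *Krt18* and 0.44 with *Cdh1*. *Krt23* ran against the other keratins and *Sox9*, with -0.38 for *Krt8*, -0.35 for *Krt7*, -0.33 for *Sox9* and -0.30 for *Krt18*. The mice share library depth and make-up, and *Krt7* and *Krt19* are too shallow for a weak r to be read.

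**Figure D5:**
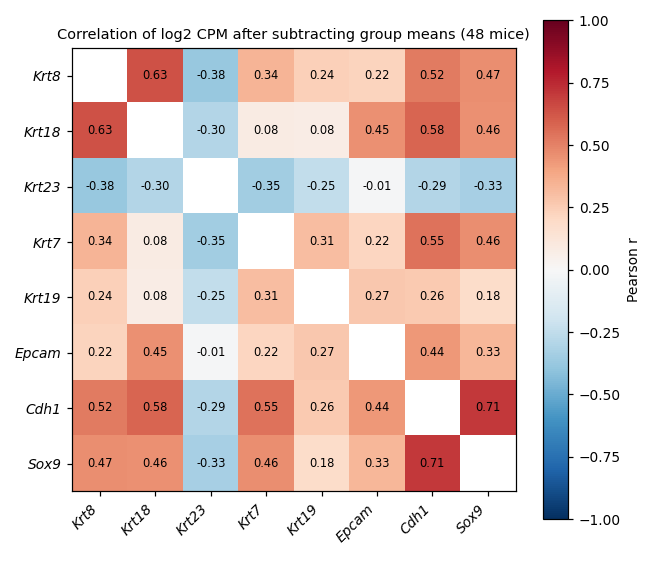
Pearson's r between the 8 genes over 48 mice, computed on log2 CPM after subtracting group means, from blue (-1) to red (1). *Sox9* with *Cdh1* (0.71) and *Krt8* with *Krt18* (0.63) are the highest, and the *Krt23* row is blue or near white throughout.

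Outside the 8 members, the genes whose log2 CPM over the 48 mice was most like that of a member differed from member to member. Unlike the values between members, these r values were computed without subtracting group means, so differences between groups enter them. After that subtraction each pair named here had a lower r, from 0.79 for *Krt8* with *Otud7b* to 0.52 for *Krt19* with *Ehf*. For *Krt23* with *Idh3b* it was 0.63, and for *Krt7* with *Myh9* 0.53. For *Epcam* they were *Tspan8* (r = 0.83), *Spp1* (0.82), the duct cell gene for osteopontin, and *Scara3* (0.74). *Krt8* was closest to *Otud7b* (0.90), *Cntnap1* (0.89) and *Atp9a* (0.88), and *Krt18* to *Gss* (0.81), which encodes glutathione synthetase, *Wbscr27* (0.80) and *Anxa7* (0.79). *Krt23* was closest to *Hrsp12* (0.90), *Idh3b* (0.87), a subunit of mitochondrial isocitrate dehydrogenase, and *Gabarapl1* (0.86). *Krt7* was closest to *Myh9* (0.80), the heavy chain of non-muscle myosin, and *Krt19* to *Lamc3* (0.69) and the epithelial transcription factor gene *Ehf* (0.67). *Sox9* was closest to *Arsa* (0.77) and *Rab34* (0.75), and *Cdh1* to *Zfp750* (0.70) and *Sel1l3* (0.69).

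Of 30 other biliary genes, 22 passed the filter on low counts. In the chromosomal effect 15 were higher in XX and 1 lower, against 21.9% and 14.8% of all genes, and their median log2 fold change was 0.31, against 0.05 for all genes. *Spp1* gave 1.11 ± 0.20 and *Tspan8* 0.99 ± 0.21 (edgeR adjusted p = 2.0e-05 and 0.00017), whereas *Cd24a* fell by 0.54 (SE 0.14, adjusted p = 0.0017). Within cohorts 1 was higher and 1 lower in intact mice, and 12 were higher and none lower in GDX mice, against 10.7% and 34.3% of all genes called.

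In both gonadectomy effects 15 of the 22 biliary genes were higher and 3 lower, with medians of 0.64 for ovariectomy and 0.61 for castration, against 0.06 and 0.07 for all genes. Of all genes 69.4% and 63.3% were called in these effects, 36% and 33.4% as higher, so a high count of calls is the background here. *Ehf* rose by 1.15 ± 0.32 and 1.02 ± 0.32 on the log2 scale (edgeR adjusted p = 0.0016 and 0.0052), and *Tm4sf4* gave -0.97 ± 0.13 and -0.52 ± 0.13 (adjusted p = 2.7e-08 and 0.00068). *Slc5a1*, a sodium-glucose cotransporter gene, rose after ovariectomy (1.24 ± 0.26, adjusted p = 4.5e-05). *Slc10a2*, the apical bile acid transporter gene, gave -1.46 ± 0.23 after castration (edgeR adjusted p = 6.8e-07), and *Prom1* rose there by 1.44 ± 0.32 (adjusted p = 0.00017). In the gonadal effect, with 25.3% of all genes called, 2 were higher and 3 lower (median -0.08), among them *Prom1* (1.54 ± 0.32, edgeR adjusted p = 0.00044) and *Slc10a2* (-0.94 ± 0.22, adjusted p = 0.0018).

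Of 21 other keratin genes only *Krt10* and *Krt80* passed the filter on low counts. *Krt80*, a type II epithelial keratin, measured 0.0515, 0.292 and 1.17 CPM in XX mice and 0.524, 9.99 and 26.9 CPM in XY mice. Within each cohort the genotypes did not overlap, with 0.0515 to 0.435 CPM in XX Intact against 0.524 to 12.1 CPM in XY Intact mice, and 0.0616 to 1.17 CPM in XX GDX against 9.89 to 26.9 CPM in XY GDX mice. XX values lay near the floor of 3 reads. The log2 fold change of XX minus XY was -4.71 ± 0.24 (edgeR adjusted p = 8.5e-20), with -4.08 in intact and -5.34 in GDX mice. *Krt80* thus ran opposite to *Krt8*, *Krt18* and *Krt23*, and the test of the difference between the cohorts gave -1.26 ± 0.55 (edgeR adjusted p = 0.27).

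*Krt10*, a type I keratin of stratified epithelia, measured 1.49 to 7.57 CPM in intact and 1.05 to 2.18 CPM in GDX mice. Its log2 fold changes were -1.83 ± 0.22 for ovariectomy and -1.72 ± 0.23 for castration (edgeR adjusted p = 3.0e-09 and 3.6e-08).

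All 27 genes of keratin partners and junctions were tested. In the chromosomal effect 17 were higher in XX and 1 lower (median 0.21), against 36.7% of all genes called, among them *Dsp*, whose product anchors keratin filaments in desmosomes (0.46 ± 0.14, edgeR adjusted p = 0.0062, and 0.08 with library totals), and *Vim*, the vimentin gene of mesenchymal cells (-0.80 ± 0.14, adjusted p = 7.1e-06). After ovariectomy 14 were higher and 4 lower (median 0.23), and after castration 14 were higher and 3 lower (median 0.15), counts near the shares of all genes called, 69.4% and 63.3%. *Ppl*, the periplakin gene, rose by 1.23 ± 0.16 and 1.14 ± 0.16 (edgeR adjusted p = 2.1e-08 and 1.6e-07). *Plec*, the plectin gene, rose after ovariectomy (1.34 ± 0.21, adjusted p = 3.4e-07) and *Dsp* after castration (0.82 ± 0.19, adjusted p = 0.0003). In the gonadal effect 3 were higher and 8 lower (median -0.15), against 14.1% and 11.3% of all genes.

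The Notch and Hippo pathways take part in bile duct cell fate, and 21 of 23 such genes were tested. After ovariectomy 10 were higher and 1 lower (median 0.32), against 69.4% of all genes called, with *Notch3* at 1.21 ± 0.19 and *Heyl*, a Notch target, at 1.06 (edgeR adjusted p = 3.4e-07 for *Notch3*). After castration 12 were higher and 3 lower (median 0.31), against 63.3% of all genes, with *Notch2* at 0.82 ± 0.15 and the Hippo transcription factor gene *Tead1* at 0.75 ± 0.17 (adjusted p = 6.4e-06 and 0.00017). *Ccn1*, a target of that pathway, gave -0.32 ± 0.10 and -0.50 ± 0.10 in these effects (adjusted p = 0.0046 and 4.8e-05), and its ovariectomy value was -0.13 with library totals (adjusted p = 0.36). In the chromosomal effect, with 36.7% of all genes called, 4 were higher and 3 lower (median 0.06), with *Ccn1* at 0.41 ± 0.07 and *Ccn2* at -0.63 ± 0.19 (adjusted p = 1.1e-05 and 0.0082). The gonadal effect called 2, both lower in mice with ovaries (median -0.10), against 25.3% of all genes.

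Markers of cell types were counted in the same effects, and their part in the members' values was not tested. Of all genes 21.9% were higher and 14.8% lower in XX mice, and 14.1% and 11.3% in the gonadal effect. After ovariectomy these shares were 36% and 33.4%, and after castration 33.4% and 29.9%, so a high count of calls is the background there. Of 10 cholangiocyte markers, 7 were tested, 4 of which are the members *Epcam*, *Krt7*, *Krt19* and *Sox9*, so the counts partly restate the members' own. They summed to 33.7, 77.0 and 201 CPM in XX mice and 29.0, 56.8 and 83.5 CPM in XY mice. The sum was 29.0, 49.8 and 162 CPM in intact and 56.3, 75.2 and 201 CPM in GDX mice. Of the 7 tested, 4 were higher and none lower in XX mice, and none was higher and 2 lower in the gonadal effect. After ovariectomy 5 were higher and none lower, and after castration 3 were higher and 1 lower. The defining markers *Cftr* and *Sctr* had no read in 13 and 17 of the 48 mice.

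Of 10 macrophage markers, 1 was higher and 8 lower in XX mice (median -1.16), and their sum was 173, 368 and 919 CPM in XX against 305, 848 and 1886 CPM in XY mice. In the gonadal effect 6 were higher and none lower. Of the same markers, 2 were higher and 2 lower after ovariectomy, and 5 were higher and 1 lower after castration. The shares of all genes called were 36.7% in the chromosomal and 25.3% in the gonadal effect, 69.4% after ovariectomy and 63.3% after castration. Mesothelial markers, 7 of 8 matched and 4 tested, summed to between 0.762 and 9.37 CPM and had 3 genes higher and none lower in XX mice, 2 higher after ovariectomy, 1 higher after castration and 1 higher in the gonadal effect. Of 12 pancreatic acinar markers, *Cela3b* and *Pnlip* had no read in any of the 48 mice, and *Cpa1*, *Cpb1*, *Clps*, *Prss2* and *Cel* none in 46 or 47. Only *Cela1* was tested, and it was not called between XX and XY mice but was lower in the gonadal, ovariectomy and castration effects (log2 fold changes of -0.90, -0.99 and -1.76).

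Of 10 hepatocyte markers 1 was higher and none lower in XX mice, and none was higher and 3 lower in the gonadal effect. After ovariectomy 3 were higher and 4 lower, and after castration 3 were higher and 3 lower. These counts after gonadectomy lay near the shares of all genes called, 69.4% and 63.3%. The shares were 36.7% in the chromosomal and 25.3% in the gonadal effect. Of 10 stellate cell markers 1 was higher and 1 lower in XX mice, 3 higher in the gonadal effect, 4 higher and 2 lower after ovariectomy, and 4 higher and 1 lower after castration. Of 10 endothelial markers none was higher and 3 lower in XX mice, 1 higher in the gonadal effect, 1 higher and 1 lower after ovariectomy, and 2 higher and 1 lower after castration.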

How the data were processed

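Liver RNA of 48 mice was sequenced as 1 library per mouse. The authors aligned reads to GRCm39 with STAR (version 2.7.10a) and deposited raw counts per gene. Strand and annotation are not given in the sources used here, so genes on opposite strands may share reads, as may keratin genes and near-identical copies. The 4 summary lines of the table, 25.5% to 42.3% of each library, were left out. The authors analysed their counts with DESeq2 (version 1.36.0). For this re-analysis edgeR (version 4.0.16, under R version 4.3.3) was used, with its quasi-likelihood test, robust dispersion, TMM factors, filterByExpr (15414 genes) and a mean for each of the 8 groups. Genes with an adjusted p under 0.05 after Benjamini-Hochberg adjustment over all tested genes were called. SE is the log2 fold change divided by the square root of F. log2 CPM carried a prior count of 2. The fit was tested on simulated counts.

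All 48 mice entered, and a fit without XX Te Intact mouse 95271, which does not appear among the values the study lists for 1 gene, was an alternative. Other alternatives were DESeq2's size factors, library totals, DESeq2's Wald test (version 1.42.0), a filter of 10 counts in every mouse, no filter beyond 1 count, 1 surrogate variable (sva, version 3.50.0), the compared groups alone, a fold change above 1.5, leaving out each mouse and, chosen after seeing the data, leaving out 5 libraries. The members and gene lists were chosen with earlier results of these data known. From each list, the called genes with the 2 highest and 2 lowest log2 fold changes in an effect, at a mean log2 CPM of at least 0, could be named, and for each member the 3 most correlated genes. Symbols came from the NCBIM37 annotation and RefSeq synonyms. The mice share no replicate culture or pool, and p-values measure the spread between mice.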

Additional observations from a re-analysis of the deposited data

Results flagged for a closer look

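In 6 of 64 sets of 6 mice, 1 mouse stood apart from the others of its group by Dixon's test at the 95% level. Chance alone does this in about 1 in 20 sets if the values are normally distributed. The test was run on CPM without a log scale, and each flagged value was the highest of its group. That rate may therefore not hold here. XX Te GDX mouse 37517 stood apart for both *Krt8* (204 CPM, others 103 to 127) and *Krt18* (205 CPM, others 95.3 to 121). *Krt23* had 1 high mouse among XY Ov GDX mice (mouse 19562, 5.54 CPM, others 1.42 to 2.50) and 1 among XY Ov Intact mice (mouse 69065, 24.6 CPM, others 3.81 to 10.03). XX Ov Intact mouse 69572 had 0.670 CPM of *Krt7* (others 0 to 0.180), and XY Ov Intact mouse 48525 had 0.394 CPM of *Krt19* (others 0.150 to 0.233).

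The effects of castration and ovariectomy on *Sox9* differed by -0.97 on the log2 scale by edgeR's quasi-likelihood test (adjusted p = 0.035), with the exceptions given under the alternatives.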

How the results depend on the processing

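Counts of members called kept within 1.5 times in most alternatives. The gonadal count of 2 fell to 1 with library totals, the compared groups alone, a fold change above 1.5 and without the 5 libraries with a TMM factor under 0.85. The ovariectomy count of 4 fell to 2, and the castration count of 5 to 3, with at least 10 counts in every mouse, a filter that leaves out *Krt7*, *Krt19* and *Epcam*, and castration also fell to 3 with library totals. The chromosomal count in intact mice fell from 2 to 1 with library totals, the compared groups alone and a fold change above 1.5. Castration minus ovariectomy fell from 1 to 0 with library totals, no filter beyond 1 count and without the 5 libraries. Chromosomes by GDX rose from 0 to 1 with DESeq2's Wald test and 1 surrogate variable. Apart from the filter, the cause was not tested. Leaving out 1 mouse gave 2 to 3 calls for the gonadal, 4 to 5 for the chromosomal, 4 for the ovariectomy and 4 to 6 for the castration effect, 2 and 6 for the chromosomal effect in intact and GDX mice, 0 to 2 for castration minus ovariectomy and 0 to 1 for chromosomes by GDX.

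Of the single effects of members, 17 values changed sign, none of them called on either side. With library totals these were *Krt18* ovariectomy (0.12), *Krt19* castration minus ovariectomy (-0.0056), *Epcam* ovariectomy in XY (0.18) and *Sox9* castration in XX (0.0518). With 1 surrogate variable they were *Sox9* ovariectomy (-0.0144), *Cdh1* ovariectomy (-0.30), *Cdh1* chromosomal in intact (-0.21), *Krt7* chromosomes by GDX (0.0407), *Krt18* gonad by chromosomes (0.0051) and *Cdh1* castration in XX (-0.0180). Without the 5 libraries they were *Cdh1* gonadal (0.0733), *Cdh1* ovariectomy (-0.27), *Krt19* castration minus ovariectomy (-0.0324), *Krt8* chromosomes by GDX (-0.0109), *Krt8* gonad by chromosomes (0.0554) and *Epcam* ovariectomy in XY (0.10). Without mouse 95271 it was *Krt19* castration minus ovariectomy (-0.0813).

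Leaving out 1 mouse moved the following across 0: *Krt19* gonadal (-0.47 to 0.0019), *Epcam* (-0.16 to 0.0042), *Krt8* (-0.0176 to 0.11) and *Krt18* (-0.0265 to 0.12) for the former gonad, *Cdh1* chromosomal in intact (-0.0646 to 0.24), *Krt19* castration minus ovariectomy (-0.15 to 0.33), *Krt7* (-0.43 to 0.24) and *Krt19* (-0.0483 to 0.43) chromosomes by GDX, *Krt7* (-0.74 to 0.49) and *Krt18* (-0.24 to 0.15) gonad by chromosomes, *Epcam* ovariectomy in XY (-0.20 to 0.0793), and *Sox9* (-0.20 to 0.0763) and *Cdh1* (-0.22 to 0.31) castration in XX.

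Library totals moved the median of all genes from 0.06 to 0.27 for ovariectomy and from 0.07 to 0.27 for castration, and turned the split of chromosomal calls from 3382 higher and 2275 lower in XX to 1207 and 3083, as no filter beyond 1 count did to 1868 and 2804. The 4 members *Krt23*, *Epcam*, *Krt8* and *Krt18* passed as higher in XX in both. Relative to that median, *Krt18* gave -0.15 for ovariectomy and -0.39 for castration. The remaining named genes kept their direction in every alternative and lost their call in 3 cases, all with library totals (*Dsp* and *Tead1* in the chromosomal and *Ccn1* in the ovariectomy effect). No paired analysis was possible because the mice carry individual numbers and no number is shared between groups. Depth limits *Krt7* and *Krt19*, at 0 to 24 reads per mouse.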
